A study of Mus musculus with 36 samples.

Results

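Acyl-CoA thioesterases were examined as a family in cultured mouse mesenchymal stem cells (MSCs) from 4 tissues. The members were taken by name, as the genes Acot1, Acot2, Acot3, Acot4, Acot7, Acot8, Acot9, Acot11, Acot12 and Acot13, which are 10 of the 24411 genes measured. The MSCs came from the marrow of the femur (fBM-MSCs) and of the vertebrae (vBM-MSCs), from adipose tissue (A-MSCs) and from lung (P-MSCs) of young adult C57BL6/J mice. No engineered allele or difference in treatment is given for any group, and all were grown in MesenCult medium for a few passages, after seeding with MesenPure and a Rock inhibitor. Lung and adipose tissue were digested with collagenase before culture, while marrow was freed by crushing bone, so the mode of isolation and tissue of origin cannot be told apart. RNA-seq was available for 11 libraries, 2 from vBM-MSCs and 3 from each other tissue, and ATAC-seq, which maps open chromatin, for 1 pooled list of peak summits per tissue. Replicate 3 of vBM-MSC RNA-seq was not analysed here. The labels call these cultures mesenchymal stem cells, and they are mixed populations grown on coated dishes, not clones.

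Acyl-CoA thioesterases split a fatty acyl-CoA, the activated form in which a cell burns, stores or elongates a fatty acid, into the free acid and coenzyme A. They therefore act against the acyl-CoA synthetases, and each compartment has its own enzymes. The closely related genes Acot1 to Acot6 encode the type I enzymes, with ACOT1 in the cytosol, ACOT2 in mitochondria and ACOT3 and ACOT4 in peroxisomes. The type II enzymes share no sequence with them and include cytosolic ACOT7, ACOT11 and ACOT12, mitochondrial ACOT9, peroxisomal ACOT8 and ACOT13, which is found at mitochondria. Several members are known targets of the fatty acid receptor PPARα in liver, and ACOT11 is known from brown fat, where it limits the burning of fatty acids.

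The RNA-seq libraries held 19569650 to 40517739 expected counts, with a median of 34414200. The MSC surface markers Itgb1, Cd44, Ly6a and Vcam1 summed to between 983 and 2336 TPM, a level scaled for transcript length and library size, in every library. Within that sum, Ly6a averaged 351, 688, 126 and 45.0 TPM and Vcam1 38.8, 62.6, 42.6 and 116 TPM in fBM-, vBM-, A- and P-MSCs. Of the negative MSC markers, Cd34 averaged 54.0, 7.39, 1.04 and 3.25 TPM in the same order. Pecam1 and Ptprc averaged at most 1.49 and 0.270 TPM in any tissue. Genes of dividing cells followed the tissue of origin, with a sum over 10 such genes of 190 to 222 TPM in fBM-MSCs, 204 to 216 in vBM-MSCs, 565 to 592 in A-MSCs and 1139 to 1233 in P-MSCs. A set of 10 adipocyte genes summed to 29.9 to 67.9 TPM in fBM-MSCs, 23.4 to 70.9 in vBM-MSCs, 58.3 to 186 in A-MSCs and 8.59 to 9.85 in P-MSCs, and 7 of the 10, among them Adipoq, were at 0 counts in every P-MSC library. Mesothelial genes (6) summed to at most 3.54 and 15.2 TPM in fBM- and vBM-MSCs, 92.1 to 141 in A-MSCs and 22.9 to 39.0 in P-MSCs, and epithelial genes (8) to at most 12.9 TPM in marrow, 41.7 to 67.0 in A-MSCs and 52.4 to 60.9 in P-MSCs. In P-MSCs the epithelial sum was mostly Krt19 (mean 54.9 TPM), with Krt18 and Krt8 at 0.847 and 0.0800 TPM. The P-MSC mesothelial sum was mostly Upk1b (mean 29.8 TPM), then Msln (2.30 TPM), while Wt1, Lrrn4 and Gpm6a were at 0 counts. In A-MSCs Krt19, Krt18 and Krt8 averaged 18.2, 16.5 and 14.5 TPM. Endothelial genes (7) reached 55.5 TPM in 1 A-MSC library. Of 6 muscle genes, Acta1, skeletal actin, averaged 13.2, 275, 918 and 741 TPM in fBM-, vBM-, A- and P-MSCs, while Myod1 and Myog were at 0 counts in every library. The part of these cells or genes in the results below was not tested. The libraries are bulk cultures, so fewer cells of a type and less RNA per cell cannot be told apart.

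The products of 3 genes made up nearly all of the family's RNA in every tissue. Acot7, Acot13 and Acot9 averaged 225, 173 and 171 TPM over the 11 libraries, and together they were 91.0 to 95.6% of the summed TPM of the 10 members in any library. Acot8 averaged 20.7 TPM and Acot2 11 TPM. Acot4, Acot11 and Acot1 followed at 2.27, 2.10 and 1.30 TPM, and Acot12 and Acot3 were at 0.0873 and 0.0327 TPM. Neighbours in this order overlapped between libraries except at a pair of steps, from Acot9 to Acot8 and from Acot2 to Acot4, where the first gene was above the second in 11 of 11 libraries and the ranges did not overlap. Acot7 ranked above 95.2 to 97.6% of all genes, depending on the tissue.

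The summed TPM of the 10 members was 560 ± 45.7 (SD, n = 3) in fBM-MSCs, 451 ± 59.8 (n = 2) in vBM-MSCs, 652 ± 32.6 (n = 3) in A-MSCs, and for P-MSCs 712 ± 27.4 (n = 3). Libraries of P-MSCs, at 687 to 741 TPM, lay above all others, and the vBM-MSC libraries, at 408 and 493 TPM, below all others. The step from A- to P-MSCs holds on TPM only: from counts Acot7, Acot9 and Acot13 gave -0.04, 0.09 and 0.21 for A- against P-MSCs, none of them called (edgeR adjusted p = 0.831, 0.579 and 0.267). These sums follow the 3 abundant genes, and the low members did not share their order.

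**Figure D1:**
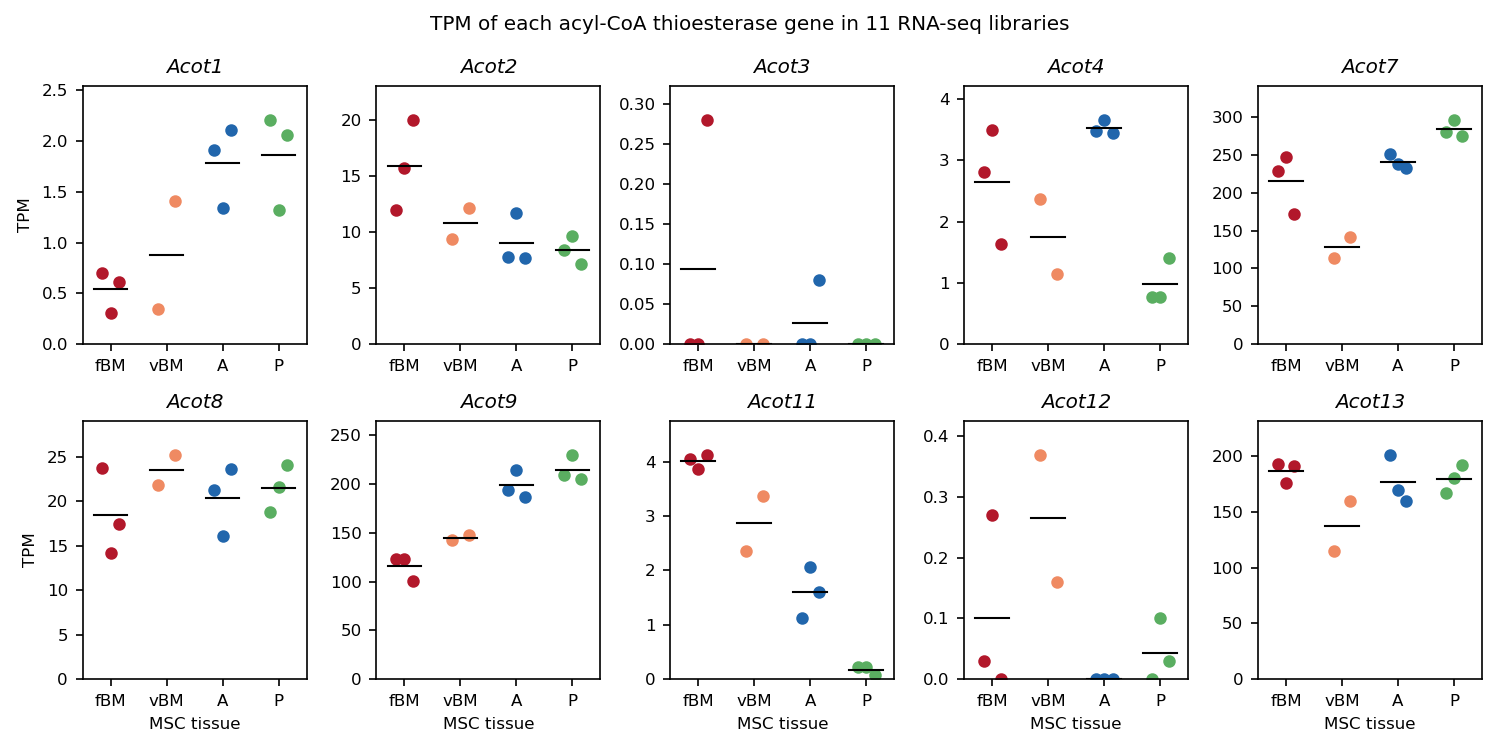
TPM of each member in each RNA-seq library, one panel per gene with its own linear axis; points are libraries of fBM-MSCs, vBM-MSCs, A-MSCs and P-MSCs and bars are means. Acot11 steps down from fBM-MSCs (mean 4.01 TPM) to P-MSCs (mean 0.173 TPM), Acot9 is highest in A-MSCs and P-MSCs, Acot7 is lowest in vBM-MSCs, and Acot3 and Acot12 lie near 0.

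Whether the members differed between tissues was tested with edgeR's quasi-likelihood test on the expected counts, in one model of the 4 tissues, with Benjamini-Hochberg adjustment over all 12509 tested genes and a threshold of 0.05. A gene entered the test with at least 1 CPM, a count scaled for library size but not for length, in at least 2 libraries. This left 8 of the 10 members, since Acot3 and Acot12 reached that level in 0 libraries. Acot11 entered without any P-MSC library, and Acot1 without any fBM-MSC library, so their passing depended on the tissues where they were higher.

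Over the 4 tissues together, 6 of the 8 tested members were called, all but Acot1 and Acot8, beside 60.6% of all tested genes. Between the bone marrow MSCs (fBM and vBM) and the non-bone marrow MSCs (A and P), 5 of 8 members were called, beside 47.2% of all genes. Acot11 and Acot2 were higher in marrow, beside 24.8% of all genes, and Acot1, Acot7 and Acot9 were lower, beside 22.4%. The median log2 fold change of the tested members was -0.08, against 0.03 over all genes. When vBM-MSCs were set against the average of the remaining tissues, 3 of 8 were called, beside 22.1% of all genes: Acot11 was higher, beside 12.6%, and Acot7 and Acot13 were lower, beside 9.49%. The median there was -0.25, against 0.03. For Acot11 vBM-MSCs passed against P-MSCs only, and its mean TPM was higher in fBM-MSCs, at 4.01 against 2.87 in vBM-MSCs. These shares are of 8 genes, and the members as a whole did not move in 1 direction.

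Between pairs of tissues the called members went in both directions in 3 pairs and in 1 direction in the other 3. Members called numbered 2 of 8 between fBM- and vBM-MSCs (12.8% of all genes), 4 between fBM- and A-MSCs (40.9%), 4 between fBM- and P-MSCs (47.7%), 3 between vBM- and A-MSCs (25.6%), 3 between vBM- and P-MSCs (38.7%) and 2 between A- and P-MSCs (30.9%). The median log2 fold change of the members ranged from -0.55, in vBM- against A-MSCs, to 0.53, in fBM- against vBM-MSCs, while that of all genes ranged from -0.01 to 0.03. These comparisons share libraries and are not independent of each other. Without vBM-MSC replicate 1 the genes called fell from 1601 to 610 between fBM- and vBM-MSCs, and from 2769 to 1504 in vBM-MSCs against the others, so the shares of all genes in these comparisons rest on that library. Testing log2 TPM with limma in place of counts with edgeR changed the scale and the test together, and moved all genes between these pairs. The share of called genes higher in A- than in P-MSCs was 51.7% from counts and 30.1% on log2(TPM + 1), with the median of all genes at -0.16. In vBM- against A-MSCs the share higher in vBM-MSCs was 51.5% from counts and 61.7% on log2(TPM + 0.1), with the median at 0.14, and in fBM- against P-MSCs the share higher in fBM-MSCs was 51.8% from counts and 42.4% on that scale, with the median at -0.12. The other pairs moved by less. No called member changed direction under either scale, but in A- against P-MSCs the small uncalled values of Acot1, Acot8, Acot9 and Acot13, positive from counts, were below 0 on both. Calls did change: on both scales Acot13 lost its call in vBM- against A-MSCs and gained one in vBM- against P-MSCs. Acot1 and Acot7 gained one in fBM- against P-MSCs on both. Acot13 also lost its call in fBM- against vBM-MSCs on log2(TPM + 0.1).

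**Figure D2:**
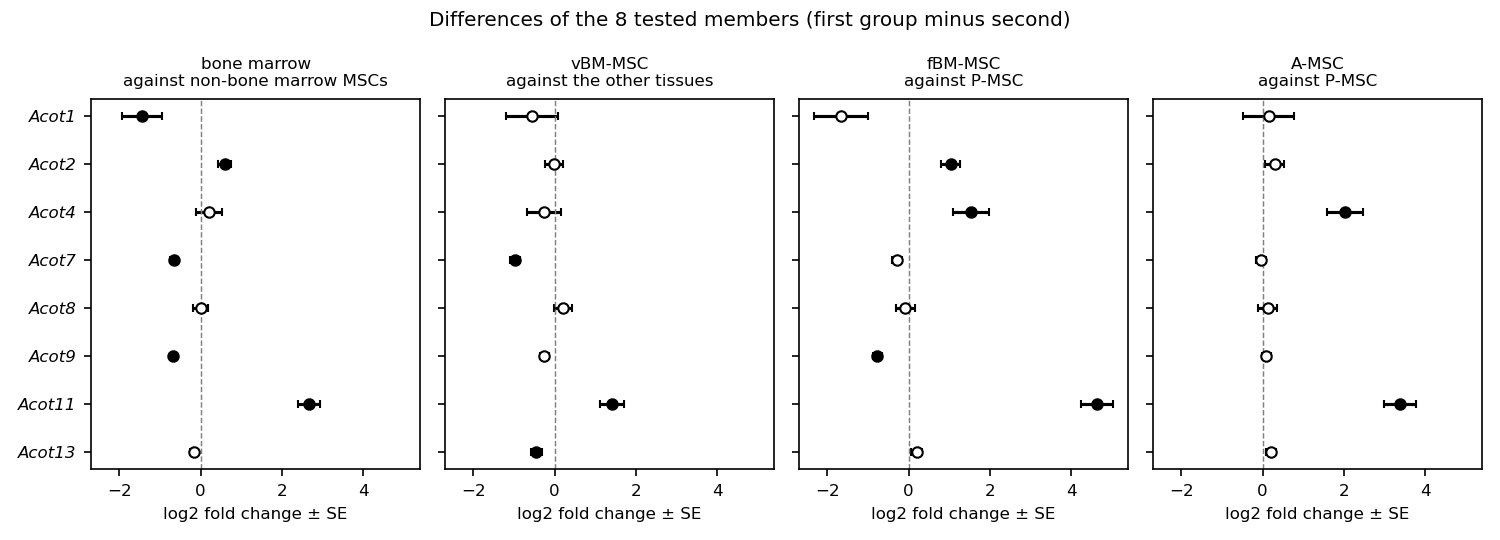
Log2 fold change (first group against second) of the 8 tested members in 4 comparisons, from the edgeR fit, with standard errors as bars; filled points have an adjusted p under 0.05. Acot11 lies to the positive side in all 4 comparisons, from 1.42 to 4.63, Acot9 and Acot7 lie below 0 in the marrow comparison, and Acot8 stays between -0.30 and 0.21 in every comparison fitted.

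Among the 8 tested members, Acot11 had the smallest p over the 4 tissues (edgeR adjusted p = 2.33e-05). This gene encodes a type II enzyme, also known as BFIT or THEM1, with a lipid-binding START domain. It lies on the minus strand of chr4:106744555-106805007 (GRCm38.p6), with 16 exons and a pair of annotated starts, and none of its 50-base stretches recur in another gene of the family. Its TPM was 4.05, 3.86 and 4.13 in the fBM-MSC libraries (299, 471 and 592 expected counts), 2.36 and 3.37 in vBM-MSCs, 1.13, 2.07 and 1.61 in A-MSCs, and 0.22, 0.23 and 0.07 in P-MSCs (34.07, 27.59 and 9.84 expected counts). The means were 4.01 ± 0.139 (SD, n = 3), 2.87 ± 0.714 (n = 2), 1.60 ± 0.470 (n = 3) and 0.173 ± 0.0896 TPM (n = 3). No tissue overlapped its neighbour in this order, and the P-MSC libraries lay far below the rest.

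The step from the other tissues to P-MSCs was called each time. Acot11 exceeded its P-MSC level by 4.63 on the log2 scale in fBM-MSCs (SE 0.40, edgeR adjusted p = 4.99e-06), by 4.09 in vBM-MSCs (SE 0.41, adjusted p = 2.32e-05) and by 3.38 in A-MSCs (SE 0.39, adjusted p = 1.30e-04). fBM-MSCs also exceeded A-MSCs, by 1.25 (SE 0.34, edgeR adjusted p = 0.0124). The neighbouring steps from fBM- to vBM-MSCs (0.54, SE 0.38, adjusted p = 0.385) and from vBM- to A-MSCs (0.71, SE 0.37, adjusted p = 0.189) did not pass. Bone marrow MSCs were higher than non-bone marrow MSCs by 2.67 (SE 0.27, adjusted p = 1.20e-05). vBM-MSCs were above the mean of the other tissues by 1.42 (SE 0.30, edgeR adjusted p = 0.00603), a call that ended without vBM-MSC replicate 2, at an adjusted p of 0.0566. Reads of Acot11 could be shared with Fam151a on the opposite strand, which overlaps 1263 of its exon bases. Fam151a was listed at 0 TPM outside P-MSCs and at up to 0.350 TPM within them. Acot11 reached 0.23 TPM in P-MSCs, and its lowest A-MSC value was 1.13 TPM. How reads were divided between this pair was not tested.

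The chromatin at Acot11 is shown with its sequence because this was the only member counted with a promoter summit in some tissues and without one in another. The 250 bases before each annotated start are given below 5′ to 3′ on the gene's strand, from RefSeq promoters on GRCm38.p6, with capitals for the motifs found: the GC box GGGCGG, the CCAAT box CCAAT and the E-box CACGTG, on either strand. The upstream start has chr4:106805008-106805257 before it and the downstream start chr4:106799832-106800081, both on the minus strand.
Acot11 upstream start: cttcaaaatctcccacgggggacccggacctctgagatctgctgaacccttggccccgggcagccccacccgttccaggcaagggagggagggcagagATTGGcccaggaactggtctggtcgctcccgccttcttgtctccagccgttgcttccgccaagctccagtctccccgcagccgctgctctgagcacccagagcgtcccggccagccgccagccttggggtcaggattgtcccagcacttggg
Acot11 downstream start: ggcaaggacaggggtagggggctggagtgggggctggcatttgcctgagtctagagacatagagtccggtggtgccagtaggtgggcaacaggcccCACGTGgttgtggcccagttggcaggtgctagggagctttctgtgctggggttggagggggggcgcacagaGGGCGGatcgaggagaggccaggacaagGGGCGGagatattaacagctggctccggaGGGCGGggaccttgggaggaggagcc
The windows of both starts, which also take in the first 50 transcribed bases, had a GC content of 66.0 and 64.7%, against a median of 52.7% over 32851 mouse promoters of the same length. GGGCGG occurred 3 times before the downstream start and was found in 35.7% of all promoters, CACGTG once (7.15% of all), and CCAAT once before the upstream start (37.4% of all). These are matches of letters in a window and not sites of a factor.

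ATAC-seq summits are described here by the fold enrichment over the genome-wide background that the deposited lists give, and a summit was counted at a promoter when it lay within 1 kb of a start with a −log10 q of at least 7. At the downstream start of Acot11 the enrichment was 8.46, 5.52 and 6.62 in fBM-, vBM- and A-MSCs. At the upstream start it was 5.89 in both marrow tissues and 5.15 in A-MSCs, the last with a −log10 q of 6.33. P-MSCs had no summit listed at either start. An intron site at position 106789902 followed the same line, with 8.46, 4.42 and 4.78 and none in P-MSCs. The strongest site of the gene did not: in the intron at position 106778603 the enrichment was 26.9, 23.5, 25.4 and 21.0 in fBM-, vBM-, A- and P-MSCs. A further intron site, at position 106788022, was listed in all 4 tissues at 11, 5.52, 11.4 and 7.72. Each tissue had 1 pooled list, so none of these values has a replicate error or a test.

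Of 9691 genes with a promoter summit in each of fBM-, vBM- and A-MSCs, 9 (0.0929%) had none listed in P-MSCs at any q. The limits differed, since a summit counted in the first 3 tissues only at a −log10 q of at least 7. The Acot11 summits, at 5.15 to 8.46, lay near 5.52, the lowest enrichment that reached this limit. The 9691 genes were not matched for enrichment, so the share does not say how rare the pattern is among weakly enriched promoters. Of 963 genes that the RNA test called lower in P-MSCs than in each of the other tissues, 4 (0.415%) were among those 9, namely Acot11, Sod3, Tmem176a and Tmem176b; this count was chosen after the values were seen, and the other 3 are named only to complete it. The adipocyte and proliferation sums given above also set P-MSCs apart, and the sum of 11 macrophage markers had the order of Acot11, at 40.5 to 52.1 TPM in fBM-MSCs, 24.4 to 45.2 in vBM-MSCs, 17.9 to 27.1 in A-MSCs and 15.1 to 17.1 in P-MSCs. Most of that sum was Lyz2 and Cd68 in fBM-MSCs (means 27.0 and 14.6 TPM), while Csf1r averaged 0.740, 0.885, 5.90 and 2.54 TPM and Cd14 3.56, 2.87, 2.08 and 5.09 TPM in fBM-, vBM-, A- and P-MSCs, with 5 of the 11, among them Adgre1, Itgam and C1qa, at 0 counts in every fBM-MSC library. The part of these lists in the Acot11 result was not tested.

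**Figure D3:**
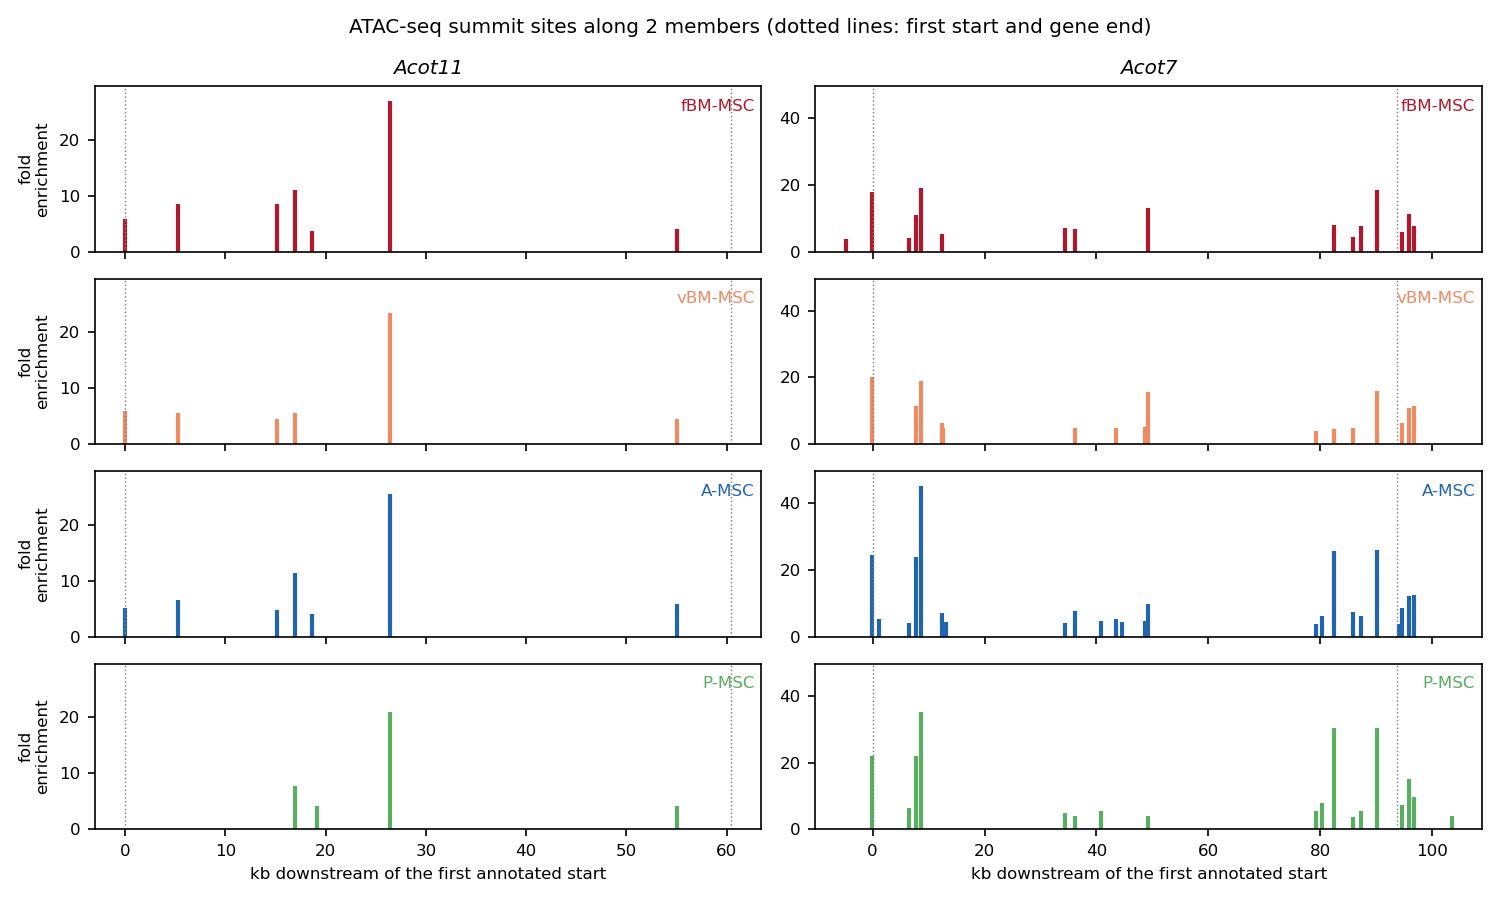
Summit sites along Acot11 and Acot7, by distance in kb from the first annotated start; each row is the pooled ATAC-seq list of a tissue, bar height is the fold enrichment, and dotted lines mark the first start and the gene end. P-MSCs lack the sites at both Acot11 starts but keep the strong intron site (21.0-fold), and the Acot7 sites are enriched up to 45.2-fold in A-MSCs.

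The genes whose levels over the 11 libraries were most like those of Acot11 were Mgll, Nfkbie and Hmox1, with a Pearson r of 0.989, 0.987 and 0.981 on log2(TPM + 1). Mgll encodes monoacylglycerol lipase, and its mean TPM was 36.1, 26.0, 15.7 and 6.29 in fBM-, vBM-, A- and P-MSCs. Nfkbie, an inhibitor of NF-κB, had 13, 10.2, 7.90 and 2.68 TPM in the same order. Hmox1, which degrades heme, had 4213, 3896, 2726 and 1459 TPM. The 11 points fall into 4 tissues and share each library's depth, so these values describe likeness only.

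Acot9 ran in the opposite direction to Acot11. It encodes a mitochondrial thioesterase and lies at chrX:155262443-155297654 on the plus strand. Its TPM was 123.63, 122.93 and 100.46 in fBM-MSCs, 142.60 and 147.83 in vBM-MSCs, 193.92, 214.64 and 187.28 in A-MSCs and 209.13, 230.40 and 205.30 in P-MSCs. Every marrow library lay below every A- and P-MSC library. Marrow MSCs were lower by -0.67 on the log2 scale (SE 0.08, edgeR adjusted p = 5.34e-05). fBM-MSCs were below A-MSCs (-0.85, SE 0.11, edgeR adjusted p = 1.20e-04) and P-MSCs (-0.77, SE 0.11, adjusted p = 1.56e-04). vBM-MSCs were below A-MSCs (-0.57, SE 0.12, edgeR adjusted p = 0.00634) and P-MSCs (-0.48, SE 0.12, adjusted p = 0.00896); the latter call ended without vBM-MSC replicate 2, at an adjusted p of 0.0594. The differences between fBM- and vBM-MSCs (-0.29, SE 0.12, adjusted p = 0.141) and between A- and P-MSCs (0.09, SE 0.11, adjusted p = 0.579) did not pass.

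Acot9 shares 19.0% of its 50-base stretches with the intronless Acot10, which averaged 0.793 to 1.25 TPM per tissue, so reads assigned between this pair are uncertain. The genes most like Acot9 over the 11 libraries were the cell cycle gene Cks1b (r = 0.985; mean TPM 170, 288, 639 and 756 in fBM-, vBM-, A- and P-MSCs), the tubulin gene Tuba1b (r = 0.979; 1039, 1504, 2721 and 3481) and Ccsap (r = 0.978). The sum of the 10 proliferation genes given above has nearly the same order, and its part in the Acot9 result was not tested. The ATAC-seq lists hold chromosomes 1 to 19 only and do not cover Acot9.

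Acot7 was lowest in vBM-MSCs. It encodes a cytosolic thioesterase known from brain, and spans chr4:152178100-152271855 on the plus strand, with 5 annotated starts. Its TPM was 228.98, 247.00 and 171.31 in fBM-MSCs, 114.04 and 141.61 in vBM-MSCs, 251.16, 237.40 and 232.12 in A-MSCs and 280.80, 296.42 and 275.14 in P-MSCs. Both vBM-MSC libraries lay below the other 9. vBM-MSCs were below the mean of the other tissues by -0.97 on the log2 scale (SE 0.12, edgeR adjusted p = 2.59e-04). The pairwise differences were 0.80 for fBM- against vBM-MSCs (SE 0.14, edgeR adjusted p = 0.00362), -1.04 for vBM- against A-MSCs (SE 0.14, adjusted p = 3.73e-04) and -1.08 for vBM- against P-MSCs (SE 0.14, adjusted p = 1.17e-04). With fBM- and vBM-MSCs fitted by themselves, the first of these lost its call at an adjusted p of 0.0823.

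Marrow MSCs as a whole had less Acot7 than non-bone marrow MSCs (-0.66, SE 0.09, edgeR adjusted p = 1.16e-04). fBM-MSCs alone did not pass against A-MSCs (-0.24, SE 0.12, adjusted p = 0.128) or P-MSCs (-0.28, SE 0.12, adjusted p = 0.0735), though the latter passed without fBM-MSC replicate 1, while leaving out replicate 3 of fBM-MSCs gave an edgeR adjusted p of 0.219. In TPM the P-MSC libraries lay above the A-MSC libraries without overlap, but from counts A- against P-MSCs gave -0.04 (SE 0.12, adjusted p = 0.831), and on log2(TPM + 1) the median of all genes in this pair lay at -0.16. The genes most like Acot7 were Gdpd1 (r = 0.973 over 11 libraries; mean TPM 11.8, 5.43, 13.4 and 16.2 in fBM-, vBM-, A- and P-MSCs), the pentose phosphate enzyme gene Taldo1 (r = 0.970; 577, 255, 546 and 830) and Havcr2 (r = 0.953).

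Chromatin at Acot7 held 27 summit sites within the gene and 10 kb on each side, of which 16, 16, 24 and 18 were listed in fBM-, vBM-, A- and P-MSCs and 11 in all 4. At a −log10 q of at least 7 there were 12, 9, 14 and 13, with 7 in all 4 and 9 of the 27 in none. The 27 include sites of the neighbour Gpr153. Those at positions 152273978 and 152274980, both among the 7, lie at its promoter, and that at 152281632 in its intron. The first start of Acot7 had an enrichment of 18.0, 20.2, 24.6 and 22.1 in fBM-, vBM-, A- and P-MSCs. Near the next starts, at position 152186824, it was 19.1, 18.8, 45.2 and 35.3, and in an intron at position 152260627 it was 8.09, 4.42, 25.8 and 30.5. Both of these sites were higher in A- and P-MSCs than in either marrow. An intron site at position 152227367 had the reverse order, with 13.2, 15.5, 9.93 and 4.05.

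Acot13 encodes a small thioesterase also known as THEM2. Its gene, on the minus strand of chr13:24817955-24831489, starts within 1 kb of Tdp2. Its TPM was 192.92, 176.27 and 191.56 in fBM-MSCs, 114.87 and 159.91 in vBM-MSCs, 201.78, 169.52 and 159.77 in A-MSCs and 166.84, 180.88 and 192.08 in P-MSCs. The vBM-MSC libraries were far apart, and the higher of them overlapped the A-MSCs. vBM-MSCs were below the mean of the other tissues by -0.45 (SE 0.13, edgeR adjusted p = 0.0322), below A-MSCs by -0.53 (SE 0.15, adjusted p = 0.0273) and below fBM-MSCs, with 0.51 for fBM- against vBM-MSCs (SE 0.15, adjusted p = 0.0493). All 3 calls ended without vBM-MSC replicate 1, at adjusted p-values of 0.225, 0.140 and 0.254. The first also ended without vBM-MSC replicate 2 or any single P-MSC library, the second without A-MSC replicate 1, and the call against fBM-MSCs ended on leaving out any of 9 of the 11 libraries. The call against A-MSCs also ended with limma on log2(TPM + 1) and on log2(TPM + 0.1), and with the 2 groups fitted by themselves. That against fBM-MSCs also ended with limma on log2(TPM + 0.1), with no filter on low counts and with the 2 groups fitted by themselves. Marrow against non-bone marrow MSCs gave -0.16 (SE 0.10, edgeR adjusted p = 0.205). The promoter summit had an enrichment of 11.4, 15.1, 11 and 15.8 in fBM-, vBM-, A- and P-MSCs.

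Acot12 RNA was barely detected, while its promoter held a summit in every tissue. It encodes a cytosolic enzyme that acts on acetyl-CoA and is known from liver. The libraries held 1, 17 and 0 expected counts in fBM-MSCs, 21 and 11 in vBM-MSCs, 0, 0 and 0 in A-MSCs and 0, 6 and 2 in P-MSCs, so the highest level was 0.37 TPM. In the A-MSC libraries a count of 0 allows up to 3 counts, or 0.0384 to 0.0493 TPM, which covers counting error only. Its promoter summit had an enrichment of 21.0, 14.7, 22.8 and 15.4 in fBM-, vBM-, A- and P-MSCs, and intron sites at positions 91780088 and 91764680 reached 22.8 and 19.1 in fBM-MSCs. The start of 4833422C13Rik on the opposite strand lies within 1 kb, so this summit belongs to both starts. That gene shares 140 exon bases with Acot12, averaged 0.727, 1.1, 0.180 and 0.120 TPM, and its reads cannot be told apart from those of Acot12 there, since the libraries carry no strand.

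The sequence before Acot12 is shown beside that of Acot4, since these were the only member promoters with a match to the PPAR element, a direct repeat of AGGTCA with 1 base between, at no more than 2 mismatches of 12 fixed bases on either strand. Such a match was found in 3.86% of all promoters. Capitals mark the motifs found, TATAAA included, and both genes lie on the plus strand of GRCm38.p6 (RefSeq), with chr13:91741271-91741520 before Acot12 and chr12:84038129-84038378 before Acot4.
Acot12: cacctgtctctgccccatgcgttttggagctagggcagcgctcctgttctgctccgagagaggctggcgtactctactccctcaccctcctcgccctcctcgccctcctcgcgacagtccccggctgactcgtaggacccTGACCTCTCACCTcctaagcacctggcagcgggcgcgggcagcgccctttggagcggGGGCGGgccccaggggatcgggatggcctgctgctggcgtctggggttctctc
Acot4: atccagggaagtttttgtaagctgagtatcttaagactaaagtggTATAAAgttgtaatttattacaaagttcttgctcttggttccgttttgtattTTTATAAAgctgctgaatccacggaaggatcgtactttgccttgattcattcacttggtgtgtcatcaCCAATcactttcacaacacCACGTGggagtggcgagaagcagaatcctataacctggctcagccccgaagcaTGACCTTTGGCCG
The match of Acot12 begins at base -110 from the start, with 1 mismatch, and that of Acot4 at base -13, with 2 mismatches. Before Acot4 there were also TATAAA 3 times (in 13.6% of all promoters, 2 of them overlapping), CCAAT once and CACGTG once; before Acot12 there was GGGCGG once. Of the members, 9 had promoter sequence, in 11 windows.

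Among the type I enzymes, Acot2 was highest in fBM-MSCs. It encodes the mitochondrial enzyme and lies at chr12:83987861-83993877, first in a row of related genes on the plus strand that runs to Acot6. Its TPM was 11.97, 15.68 and 20.01 in fBM-MSCs, 9.39 and 12.13 in vBM-MSCs, 7.81, 11.67 and 7.70 in A-MSCs and 8.37, 9.65 and 7.15 in P-MSCs. All fBM-MSC libraries were above all A- and P-MSC libraries, and the lowest of them overlapped the vBM-MSCs. Marrow MSCs were higher by 0.59 on the log2 scale (SE 0.17, edgeR adjusted p = 0.0133), and fBM-MSCs exceeded A-MSCs by 0.74 (SE 0.23, adjusted p = 0.0215) and P-MSCs by 1.04 (SE 0.23, adjusted p = 0.00274). The call against A-MSCs ended without fBM-MSC replicate 3 (adjusted p = 0.0879 in edgeR's test), and also without A-MSC replicate 1 or 3. fBM- against vBM-MSCs gave 0.61 (SE 0.25, edgeR adjusted p = 0.139), and vBM-MSCs passed neither against A-MSCs (0.13, adjusted p = 0.750) nor against P-MSCs (0.43, adjusted p = 0.196). Its promoter summit had an enrichment of 14.0, 10.3, 11.8 and 12.5 in fBM-, vBM-, A- and P-MSCs.

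Acot1, the cytosolic enzyme and a known PPARα target, lies next to Acot2 at chr12:84009502-84017670. Its TPM was 0.70, 0.31 and 0.61 in fBM-MSCs, 0.35 and 1.41 in vBM-MSCs, 1.91, 1.34 and 2.11 in A-MSCs and 2.21, 1.32 and 2.06 in P-MSCs. Each fBM-MSC library was below each A- and P-MSC library, and the vBM-MSC libraries fell on both sides. Marrow MSCs were lower by -1.44 (SE 0.50, edgeR adjusted p = 0.0324) and fBM-MSCs were below A-MSCs by -1.81 (SE 0.66, adjusted p = 0.0467). Neither call was firm: both ended with no filter on low counts, the first ended without vBM-MSC replicate 1 (adjusted p = 0.0973 in edgeR's test), without fBM-MSC replicate 2, A-MSC replicate 1 or 3 or P-MSC replicate 1 or 3, and the second ended without any single library of fBM-, A- or P-MSCs, up to 0.135. fBM-MSCs did not pass against P-MSCs (-1.66, SE 0.66, edgeR adjusted p = 0.0570). vBM-MSCs passed neither against A-MSCs (-1.21, SE 0.73, edgeR adjusted p = 0.254) nor against P-MSCs (-1.06, SE 0.73, adjusted p = 0.275). Of the 50-base stretches of Acot1, 47.3% recur in another gene of the family, 34.9% in Acot2, so that counts may be split wrongly between the pair. The promoter summit of Acot1 had an enrichment of 5.52, 8.09, 8.46 and 6.25 in fBM-, vBM-, A- and P-MSCs.

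Acot4, which encodes a peroxisomal enzyme that splits succinyl-CoA, had its lowest level in P-MSCs. It lies at chr12:84038379-84044723. Its TPM was 2.80, 3.49 and 1.63 in fBM-MSCs, 2.37 and 1.14 in vBM-MSCs, 3.48, 3.66 and 3.45 in A-MSCs and 0.77, 0.77 and 1.41 in P-MSCs. All P-MSC libraries were below all fBM- and A-MSC libraries but overlapped the vBM-MSCs. A-MSCs exceeded P-MSCs by 2.03 on the log2 scale (SE 0.44, edgeR adjusted p = 0.00543), and fBM-MSCs exceeded P-MSCs by 1.54 (SE 0.44, adjusted p = 0.0129); the second call ended without P-MSC replicate 2, at an adjusted p of 0.0519, and without P-MSC replicate 1. vBM- against P-MSCs gave 0.94 (SE 0.48, edgeR adjusted p = 0.141; 0.0458 without vBM-MSC replicate 2 and 0.821 without vBM-MSC replicate 1), and marrow against non-bone marrow MSCs 0.22 (SE 0.32, adjusted p = 0.598). No summit of Acot4 reached a −log10 q of 7: those of fBM- and vBM-MSCs had an enrichment of 4.41 and 4.78, and A- and P-MSCs had none listed. The span of the predicted lncRNA Gm40474 lies over Acot4 on the opposite strand; whether they share exon bases was not tested.

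Acot3 encodes another peroxisomal enzyme, and its RNA was barely detected. It had 17.00 expected counts in 1 fBM-MSC library (0.28 TPM), 5.05 in 1 A-MSC library (0.08 TPM) and 0 in the other 9, where up to 3 counts are allowed, or at most 0.0944 TPM. No summit was listed at its promoter in any tissue. Over the row of genes from Acot2 to Acot6 and 10 kb on each side there were 11 summit sites. Of these, 10 were listed in each marrow and 6 in each non-marrow tissue. At a −log10 q of at least 7 there were 7, 7, 6 and 4 in fBM-, vBM-, A- and P-MSCs. The site at position 84114334, listed in all 4, lies at the promoter of the neighbour Dnal1. The most enriched site of the row outside a promoter, between genes at position 84047135, had an enrichment of 9.93, 10.3, 14.7 and 8.83 in fBM-, vBM-, A- and P-MSCs. Sites at positions 84011672, in an Acot1 intron, and 84004011 were listed in marrow only, at 4.05 and 6.25 and at 5.15 and 4.05 in fBM- and vBM-MSCs. The neighbour Acot5 had 0 counts in every library, and Acot6 averaged 3.25 ± 0.703 TPM (SD, n = 3) in fBM-MSCs and 1.38, 1.06 and 1.22 in vBM-, A- and P-MSCs.

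Acot8 did not pass in any comparison. It encodes the peroxisomal type II enzyme, on the minus strand of chr2:164792768-164804881. Its TPM was 23.72, 14.22 and 17.43 in fBM-MSCs, 21.86 and 25.25 in vBM-MSCs, 21.23, 16.12 and 23.60 in A-MSCs and 18.75, 21.60 and 24.12 in P-MSCs. The 4 tissues overlapped, and the test over them gave an adjusted p of 0.687. Its log2 fold changes ranged from -0.30 to 0.21, with a value of 0.00 (SE 0.18, edgeR adjusted p = 1.0) for marrow against non-bone marrow MSCs. Its promoter, which starts within 1 kb of Zswim3, was among the most enriched of the family, at 23.2, 22.8, 33.1 and 28.3 in fBM-, vBM-, A- and P-MSCs.

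**Figure D4:**
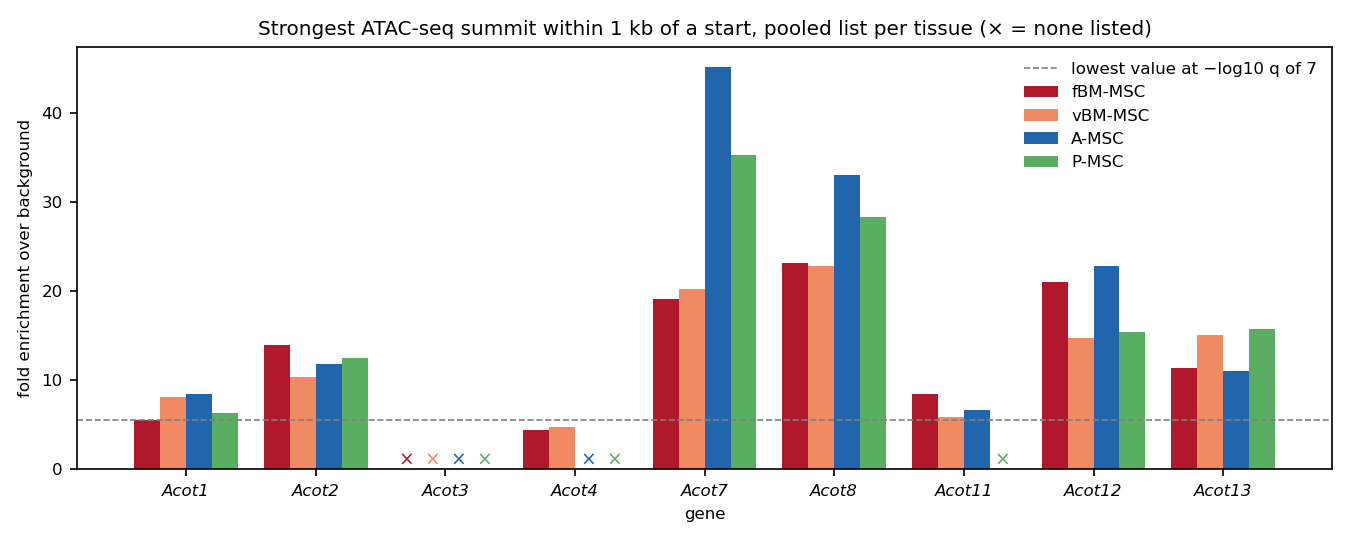
Fold enrichment of the strongest ATAC-seq summit within 1 kb of a start, by tissue, for the 9 members on listed chromosomes; crosses mark no listed summit and the dashed line is the lowest enrichment at a −log10 q of 7 (5.52). Acot12 has summits of 14.7 to 22.8 in all tissues, Acot11 has none in P-MSCs, and Acot3 has none at all.

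Promoter summits were counted over the family. Of the 9 members on chromosomes 1 to 19, 7 had one in fBM-, vBM- and A-MSCs and 6 in P-MSCs, where Acot11 was missing. Without Acot3 and Acot12, which were too low to test, these were 6, 6, 6 and 5 of 7 in fBM-, vBM-, A- and P-MSCs. Over all 11519 tested genes on these chromosomes, a promoter summit was present for 87.1, 89.0, 89.6 and 88.8% in fBM-, vBM-, A- and P-MSCs. The lists held between 100571 and 114477 summits, of which 58.0 to 63.7% had a −log10 q of at least 7.

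The other genes of acyl-CoA metabolism were read from the same fit, in which 24.8% of all genes were higher and 22.4% lower in marrow, with a median of 0.03. Of 13 other thioesterases, 8 were tested, and between marrow and non-bone marrow MSCs 1 was higher, the lysosomal Ppt1 (1.18, SE 0.08, edgeR adjusted p = 1.07e-06), and 0 were lower, with a median of -0.00. Of 23 acyl-CoA synthetase and transporter genes, 12 were tested, with 4 higher and 2 lower and a median of 0.16. Slc27a3, a fatty acid transporter, was higher by 1.74 (SE 0.26, edgeR adjusted p = 2.24e-04) and Acss2, which activates acetate, by 0.79 (SE 0.20, adjusted p = 0.00747); for Acss2 neither marrow tissue passed against A-MSCs. Of 7 genes of coenzyme A synthesis, 2 were higher and 0 lower, with a median of 0.36. These were Coasy (0.48, SE 0.10, edgeR adjusted p = 0.00291) and Ppcdc (0.68, SE 0.17, adjusted p = 0.00603), for both of which fBM-MSCs passed against A- and P-MSCs and vBM-MSCs against neither.

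Counts for the oxidation of fatty acids stand beside the same shares of all genes, 24.8% higher and 22.4% lower. Of 18 genes of peroxisomal β-oxidation, 16 were tested, and 8 were higher and 1 lower in marrow, with a median log2 fold change of 0.33. Against A-MSCs, 6 were higher in fBM-MSCs (median 0.39) and 2 in vBM-MSCs (median 0.06). Crot, which exports acyl groups from peroxisomes, was higher by 0.90 (SE 0.08, edgeR adjusted p = 7.59e-06), and Amacr, which handles branched acids, was lower (-1.03, SE 0.16, adjusted p = 3.35e-04). The Amacr value came from P-MSCs, with 8.96, 6.07, 6.42 and 35.3 TPM in fBM-, vBM-, A- and P-MSCs, and neither marrow tissue passed against A-MSCs. Of 19 genes listed for mitochondrial β-oxidation, 4 were higher and 4 lower, with a median of -0.06. The higher ones included Cpt1c (1.1, SE 0.08, edgeR adjusted p = 9.05e-07) and Acadvl (0.82, SE 0.07, adjusted p = 3.96e-06). Whether Cpt1c takes part in this oxidation was not tested. Of 16 genes of fatty acid synthesis, 13 were tested, with 2 higher and 4 lower and a median of -0.30. Elovl7 was higher by 2.38 (SE 0.23, edgeR adjusted p = 9.47e-06) and Elovl6 lower (-0.97, SE 0.12), though Elovl6 averaged 2.71, 2.62, 2.69 and 10.1 TPM in fBM-, vBM-, A- and P-MSCs and neither marrow tissue passed against A-MSCs. The 10 proliferation genes were all lower in marrow, with a median of -2.80, and their part in these counts was not tested.

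In vBM-MSCs against the average of the remaining tissues, 22.1% of all genes were called. The numbers higher and lower were 0 and 0 for the 8 other thioesterases tested, 1 and 1 for 12 synthetases, 0 and 0 for 7 genes of coenzyme A synthesis, 1 and 1 for 16 of peroxisomal oxidation, 2 and 4 for 19 of mitochondrial oxidation and 1 and 2 for 13 of fatty acid synthesis, with medians between -0.13 and 0.14. Slc27a3 was higher (1.61) and Acsl5, an acyl-CoA synthetase, lower (-0.63, SE 0.12, edgeR adjusted p = 0.0037). Amacr was lower (-1.1), again not against A-MSCs (-0.21, edgeR adjusted p = 0.573), and Scp2, a peroxisomal thiolase, was higher (0.58). Cpt1c (0.81) and Acadvl (0.47) were higher here too. Slc27a3, Scp2, Cpt1c and Acadvl were not called between fBM- and vBM-MSCs. Mean TPM in fBM- and vBM-MSCs was 32.4 and 36.1 for Cpt1c and 82.3 and 78.3 for Acadvl. It was 71.3 and 79.5 for Scp2 and 2.92 and 4.83 for Slc27a3.

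Of 13 regulators of the PPAR pathway, 7 were tested and 4 were higher in marrow, with 0 lower and a median of 0.42, beside 24.8% of all genes higher and 22.4% lower. Pparg, the receptor of fat cell formation, was higher by 0.97 (SE 0.28, edgeR adjusted p = 0.0153), with 7.64 ± 4.44 TPM (SD, n = 3) in fBM-MSCs, 7.74 ± 3.69 (n = 2) in vBM-MSCs, 5.12 ± 1.22 (n = 3) in A-MSCs and 2.88 ± 0.610 (n = 3) in P-MSCs. Its partner Rxra was higher by 0.73 (SE 0.17, edgeR adjusted p = 0.0047), the oxysterol receptor Nr1h2 by 0.45 (SE 0.11, adjusted p = 0.00554) and the lipid synthesis factor Srebf1 by 0.29 (SE 0.08, adjusted p = 0.0135). Against A-MSCs, Pparg passed in neither marrow tissue, and the other 3 passed in fBM-MSCs and not in vBM-MSCs. Rxrb, Nr1h3 and Srebf2 did not pass, and Ppara, Ppard, Rxrg, Ppargc1a, Ppargc1b and Hnf4a were too low to test. Of 18 PPAR targets outside the family, 13 were tested, with 5 higher and 3 lower in marrow and a median of 0.27. Vnn1, a pantetheinase that feeds coenzyme A synthesis, was higher by 2.71 (SE 0.31, edgeR adjusted p = 3.21e-05), with 5.36, 47.5, 3.64 and 1.71 TPM in fBM-, vBM-, A- and P-MSCs; fBM-MSCs did not pass against A-MSCs (0.50, SE 0.40, adjusted p = 0.353). In vBM-MSCs against the other tissues 0 regulators were called, with a median of 0.19, and 1 target was higher (Vnn1, 3.90) and 1 lower (Acadm, -0.37).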

How the data were processed

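RNA-seq was read for 11 libraries and ATAC-seq for 4 lists, one per tissue, to which the labels assign 6 samples each. For RNA-seq the authors ran RSEM with STAR on paired, unstranded Smart-seq2 reads against mm10. The deposited expected count of each gene is not normalized, and the authors' TPM is RSEM's value per effective length, scaled to the same sum in each library. ATAC-seq reads were processed by the authors with TrimGalore, Bowtie (unique alignments) and Picard (duplicates), a Tn5 shift and a blacklist, and MACS2 called peaks on pooled samples with no local background. The deposited lists give each summit's fold enrichment as a ratio, its −log10 q, and the summit's offset within its region. Software versions are not given in the sources used here.

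After rounding of expected counts, edgeR 4.0.16 (R 4.3.3) gave two-sided quasi-likelihood F tests at an adjusted p under 0.05, with TMM factors of 0.913 to 1.11, for genes reaching 1 CPM in 2 or more libraries. Standard errors are the log2 fold change divided by the square root of F. The code was tested on simulated data. The median coefficient of biological variation was 19.8%. The tissues were collected from the same 3 mice, but the sources do not say which library came from which, so libraries were treated as independent and the shared donors are not in the model. All RNA-seq titles name the same sequencing run. Coordinates and promoters are of RefSeq on GRCm38.p6, the assembly of mm10. Summits within 300 bases were joined into sites. Alternatives were DESeq2 1.42.0, limma 3.58.1 on log2(TPM + 1), other filters and factors, each library left out, and other summit limits.

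The members, gene lists and tests were chosen with earlier results of these data known. The text names all 10 members, the PPAR regulators, from each list the called genes with the 2 smallest p over the 4 tissues, and the 3 genes most like Acot11, Acot9 and Acot7. A gene that this rule would name is not reported here.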

Additional observations from a re-analysis of the deposited data

How the results depend on the processing

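Over 1263 refits of member values under the alternatives no called value changed direction, 53 lost a call, 14 gained one and 26 values not called crossed 0. Of 177 counts of called members 17 moved by over 1.5 times, and of 16 counts of promoter summits 0 did. Between fBM- and vBM-MSCs, 2 members were called, against 1 with no filter, 1 with limma on log2(TPM + 0.1) and 0 with the 2 groups fitted by themselves, a fit in which 305 of all genes were called against 1601 in the model of 4 tissues. Leaving out each library in turn gave 1 to 2 members for that pair, 2 to 4 for fBM- against A-MSCs (4 with all libraries) and 1 to 4 for vBM-MSCs against the other tissues (3 with all libraries), with 1 there without vBM-MSC replicate 2. Where 1 vBM-MSC library remained, it was assumed to vary like the other groups.

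Whether replicate numbers pair the libraries could not be decided from the values. Over 15 pairs with the same number the deviations correlated at -0.03 to 0.12, with 1 pair over 0.1. Of 11 libraries, 5 correlated best with their own number. The deviations were taken within tissues of 2 or 3 libraries and over all tested genes, so a modest effect of the donor could be missed. With a replicate block, 5 members were called over the 4 tissues, 4 between marrow and non-bone marrow MSCs, 2 in vBM-MSCs against the others, 3 between fBM- and A-MSCs and 1 between fBM- and vBM-MSCs. The block ended the calls of Acot1 (marrow; fBM- against A-MSCs) and of Acot13 (vBM-MSCs against the others; fBM- against vBM-MSCs). All tissues came from the same mice, but that the numbers mark a mouse is not stated. Why these counts moved was not tested beyond what each setting removes.

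Depth limits Acot3 and Acot12, at no more than 21 counts in a library, and Acot1 and Acot11 in the tissues where they are low. Acot1, Acot2 and Acot9 also depend on how RSEM divided reads among near-identical genes. ATAC-seq lists without replicates allow no error.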
